A study of Mus musculus with 16 samples.

Results

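The large subunit ribosomal protein genes were the 45 genes listed by symbol as cytosolic proteins of the 60S ribosomal subunit, among 22392 gene symbols in the count table. The rule used their names alone, although the set was picked with earlier results of these data known, and each gene was represented by the transcript with the largest sum of counts over the 16 libraries. Ribosome footprints (Ribo-seq) and RNA (RNA-seq) were measured in the same lysates of Hepa1-6 cells, a mouse hepatoma line, that were wild type (WT) or lacked exon 5 of Eef1d, which encodes the delta subunit of the exchange factor of translation elongation factor 1A. The knockout lines were clones #1, #2 and #3, here KO1, KO2 and KO3. Each is 1 clone, KO1 and KO2 were made with the same pair of guide RNAs, and all were compared with the same WT lysates. There were 2 replicates of each line in each assay. The study's methods speak of biological replicates, while no label says that they came from separate cultures, so the p-values measure only the spread between these samples.

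The large ribosomal subunit forms the peptide bond and carries the tunnel through which the new chain leaves. Its proteins surround ribosomal RNA in equal numbers, apart from the acidic stalk proteins, so their genes are usually produced together. In vertebrates their mRNAs commonly begin with a terminal oligopyrimidine (TOP) tract, through which growth signalling by mTOR controls their translation. They are also among the genes most often copied into the genome as processed pseudogenes, so short reads from their coding sequences can fit more than 1 place.

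With 1 transcript per gene, RNA-seq libraries held from 10493029 to 12946815 counts and Ribo-seq libraries from 1138944 to 4886757, the smallest and the largest of which were KO1 replicates 2 and 1. Eef1d RNA counts on the transcript with exon 5 were 116.0% and 116.2% of those on the transcript without it in WT cells and 89.8 to 92.6% in the clones, where a read outside the exon is counted on both. Of the hepatocyte markers, Alb RNA ranged from 263 to 1872 CPM (counts scaled to a common library total), Afp from 350 to 1153 and Trf from 213 to 756 across libraries. Alb was lowest in KO1 and highest in KO3. Apob ranged from 45.1 to 147 CPM and Apoa2 from 2.45 to 5.70, while Apoa1 and Ttr did not exceed 1.28. No fibroblast, leukocyte or endothelial marker examined exceeded 8.36 CPM, a level above those of Apoa1, Apoa2 and Ttr.

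All 45 members passed the filter on low counts in every comparison, and the lowest count of any member in any library was 83. Together they took 5.33 to 5.95% of RNA counts and 3.54 to 4.01% of footprint counts. Translation efficiency (TE) is used here for the log2 ratio of footprint CPM to RNA CPM of a gene in 1 lysate. In WT cells the members had a median TE level of -0.42, against -0.19 over 11259 genes, and 7 members lay below the 5th percentile of all genes, -1.98. Replicate TE levels of a member differed by a median of 0.07 and by at most 0.30 in WT cells. The members were thus far more unequal among themselves than between replicates. Rpl26, next to the exit tunnel, had TE levels of 0.92 and 0.84 in the WT lysates, and Rpl39, a small protein of the tunnel wall, had 0.77 and 0.90. At the other end Rpl21 had -3.34 and -3.30, Rpl29 had -3.05 and -3.36, and Rplp0, the base of the acidic stalk, had -2.69 and -2.60.

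Whether reads could be shared with copies was examined on the genome build of the files (mm10, GRCm38). Every run of 30 bases of a member's counted coding sequence, about the length of a footprint, was searched for elsewhere in the genome on both strands. The windows that follow are shown because they carry that check: they are runs from the sense strand with the codon at the ribosomal A site, bases 16 to 18, in capitals. Rpl21, Rpl29 and Rpl7a are members with many copies, Rpl9 and Rpl10 are members with copies that have counts of their own in the table, Rpl12 is the member with the lowest p for a TE difference among clones, and Rplp0 has no window at 10 or more other loci but a low TE.
Rpl21, chr5:146832890-146837032, plus strand: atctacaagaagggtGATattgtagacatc
Rpl29, chr9:106429539-106431567, plus strand: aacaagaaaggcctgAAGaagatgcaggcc
Rpl7a, chr2:26910764-26913318, plus strand: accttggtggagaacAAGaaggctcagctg
Rpl9, chr5:65388364-65391444, minus strand: ctgattcagcaagccACAacagttaaaaac
Rpl10, chrX:74270812-74273135, plus strand: ctcattcctgatggcTGTggtgtcaaatat
Rpl12, chr2:32961559-32964496, plus strand: atagatgacatcaacAGTggtgcagtggag
Rplp0, chr5:115559467-115563727, plus strand: aaggccttcctggctGATccatctgcattt
The coordinates are those of the transcript. Each window lies in coding exons, and it was found at 67 other loci for Rpl21, 60 for Rpl29, 76 for Rpl7a, 14 for Rpl9 and for Rpl10, 15 for Rpl12 and 7 for Rplp0.

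Copies were the rule for these genes. The median member had 97.8% of its 30-base windows at another locus, the median small subunit ribosomal protein gene had 95.8%, and among 579 genes taken at every 20th place of the tested list the median was 0%. The other loci of the members numbered 1299 in all, of which 1146 lay in annotated pseudogenes. That annotation, like the transcript coordinates above and the chromosomes below, came from an earlier GENCODE release than the study's. In 21 members every window was copied, and these still had from 450 to 6418 footprint counts in a WT library. The study describes its aligned reads as uniquely mapped, and these counts on copied sequence are hard to reconcile with that description. How reads with several matches were treated bears on the values and was not settled.

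The members with the most repeated sequence had low footprint levels. Rpl7a, Rpl17, Rpl21, Rpl23a, Rpl29 and Rpl35a each had most of their windows at 10 or more other loci, from 55.6% in Rpl23a to 87.0% in Rpl29. Their WT TE levels ranged from -3.32 to -1.76 with a median of -2.49, and their median footprint level per length was 1.13 CPM per codon. The 20 members with a smaller share of such windows had a median TE of -0.15 and 5.70 footprint CPM per codon, and the 19 members with none had -0.42 and 5.41. RNA levels per length differed less: the medians were 6.16, 7.49 and 8.36 CPM per codon in these groups. Across the 45 members Pearson's r between the WT TE level and the share of windows at 10 or more loci was -0.74 and Spearman's rho was -0.39. With the share of windows found at any other locus, r was -0.02 and rho 0.02. These points share the WT libraries. Rplp0, with no such window, was among the 3 lowest, and Rpl12, at -2.11, had only 12.3%. The TE changes in the clones had little relation to the same share, with r of 0.07 for KO1, -0.08 for KO2 and -0.03 for KO3.

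**Figure D1:**
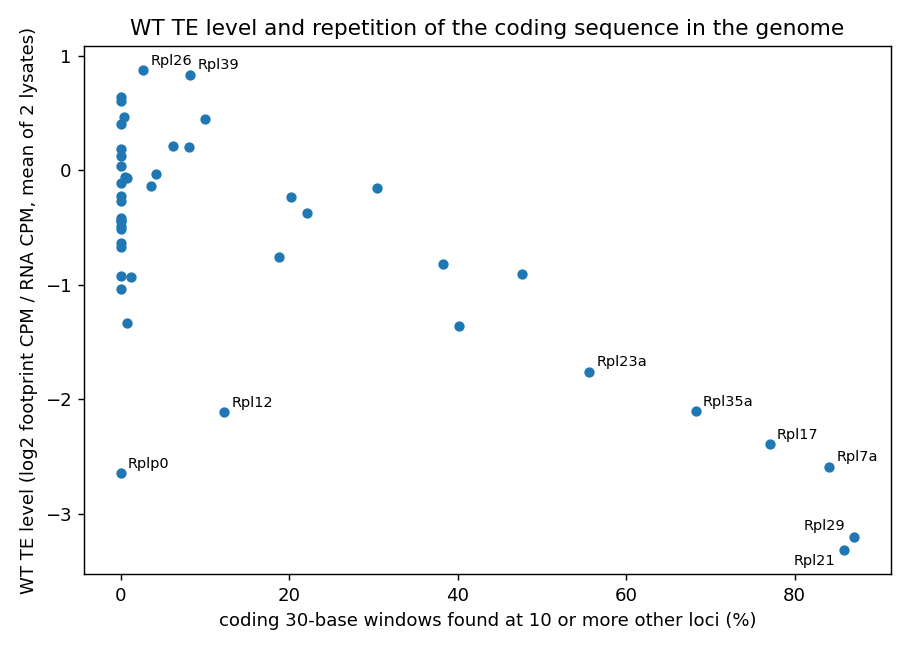
WT TE level (log2 ratio of footprint CPM to RNA CPM, mean of 2 lysates) of the 45 members, 1 point per gene, against the share of their coding 30-base windows found at 10 or more other loci. The 6 genes with most of their windows so repeated lie between -3.32 and -1.76, and Rplp0 at -2.65 is low with none.

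Copies that share more of a member's coding sequence carried more footprint counts beside it. Several copies annotated as coding genes have rows of their own in the table. Rpl10-ps3 holds all 586 windows of Rpl10, a protein of the tRNA-binding centre of the subunit, and carried 103.9 to 105.7% of Rpl10's footprint counts but 17.7 to 19.4% of its RNA counts. Rpl9-ps6 shares 490 of 520 windows (94.2%) with Rpl9 and carried 93.6 to 97.03% of its footprint counts and 1.89 to 2.75% of its RNA counts. Rpl36a-ps1 shares 68.7% of the windows of Rpl36a, with 62.9 to 68.4% of its footprint counts and 1.73 to 3.28% of its RNA counts. For Rpl9-ps1 the shared windows were 13.8% and the footprint counts 7.96 to 10.9% of those of Rpl9, while RNA counts were between 0 and 2. Rpl36-ps4, with 1.93% of the windows of Rpl36, had 4.85 to 8.24% of its footprint counts and at most 1 RNA count. By their ranges, the footprint percentages of these 5 copies had the same order as their shared windows, with the lowest 2 ranges overlapping, and their RNA percentages lay below the share of shared windows in every library. Footprints of Rpl10 cannot be told apart from those of Rpl10-ps3, and the same holds for the shared windows of Rpl9 and Rpl36a. Rpl10l and Rpl39l, paralogs known from testis, had 0 RNA counts in all libraries and at most 17 footprint counts.

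**Figure D2:**
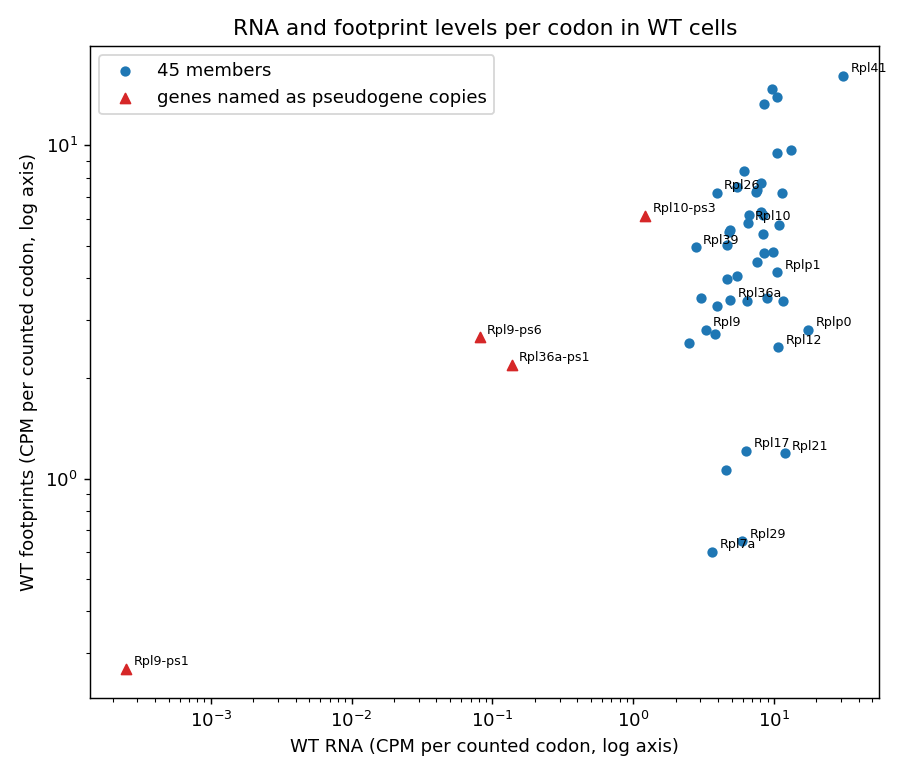
RNA and footprint levels in WT cells, both in CPM per counted codon on log axes, for the 45 members (circles) and for genes named as pseudogene copies (triangles). Rpl10-ps3, Rpl9-ps6 and Rpl36a-ps1 have footprint levels within the range of the members and RNA levels below it, Rpl9-ps1 is below the members in both, and Rpl36-ps4, with 0 RNA counts in WT cells, is not drawn.

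RNA of the large subunit ribosomal protein genes moved in both directions in each clone, with less spread than that of all genes. The scaled median absolute deviation of the log2 changes in KO1, KO2 and KO3 was 0.22, 0.08 and 0.13 among members. Among all genes it was 0.38, 0.24 and 0.36. In a bulk lysate, a change in some cells and a smaller change in all cells cannot be told apart, and every change is relative to the other genes of the library. In KO1, 37 of 45 were called at an adjusted p under 0.05 by edgeR's quasi-likelihood test with Benjamini-Hochberg adjustment, 23 higher and 14 lower, where 46.8% of all genes tested were called (22% higher, 24.8% lower). In KO2, 11 were called, 4 higher and 7 lower, beside 20.4% of all genes (11.7% and 8.68%). In KO3, 20 were called, 11 higher and 9 lower, beside 45.4% of all genes (23.1% and 22.4%). The median log2 RNA change of the members was 0.10 for KO1, -0.04 for KO2 and -0.01 for KO3, while that of all genes was within 0.01 of 0 in each. Over the 19 members with no window at 10 or more loci the medians were 0.013, -0.023 and 0.014. Only Rpl4, Rpl8, Rpl13a, Rpl22, Rpl32, Rpl39 and Rpl41 had little long copied sequence, under 10% of their 100-base windows. Over these few the medians were 0.065, -0.026 and 0.097, so the sign in KO3 turned with the members counted. The count in KO2 was 5 without WT replicate 1, 4 without WT replicate 2 and 17 without KO2 replicate 1, and that in KO3 was 12 without WT replicate 1. The share called in KO1 was above that of all genes, and in KO2 and KO3 it was close to it. The set of all genes includes genes with fewer counts than the members. Neither the shares nor the spreads were compared at matched counts. RNA changes of 42 members differed among the 3 clones in a test of equality, a test that 74.1% of all genes passed.

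Members that lay more than 3 scaled median absolute deviations (MAD) from the members' median were counted as departing from the rest. As they were picked by the size of their change, lysates that do not overlap are no separate support for it. In KO1 RNA this was Rpl41 alone. Rpl41, on chromosome 10, encodes a very short basic peptide at the interface of the subunits. Its RNA was 1123 and 1166 CPM in WT cells, 1986 and 2126 in KO1, 810 and 882 in KO2, while KO3 had 1253 and 1285. No line overlapped another, and the order was KO1, KO3, WT, KO2. The log2 change was 0.84 ± 0.04 (SE, n = 2 per line) in KO1 (adjusted p = 1.53e-28), -0.43 ± 0.05 in KO2 (adjusted p = 1.32e-06) and 0.16 ± 0.04 in KO3 (adjusted p = 0.00132). It departed in KO2 as well, in the opposite direction. Rpl21 stood next to it in KO1 without passing the limit of 3 MAD: its RNA was 1761 and 1828 CPM in WT cells and 2769 and 3044 in KO1, a change of 0.69 ± 0.04 (adjusted p = 9.95e-25).

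In KO2 the other departures were Rpl7, Rpl31 and Rpl37a, all of chromosome 1 and all higher. Rpl7 RNA was 1989 and 1981 CPM in WT cells and 2495 and 2342 in KO2, a log2 change of 0.30 ± 0.04 (adjusted p = 2.63e-05). Rpl31, at the exit tunnel, changed by 0.28 ± 0.05 (adjusted p = 0.000117) and Rpl37a, a zinc-binding protein, by 0.23 ± 0.05 (adjusted p = 0.000732). In each of them both KO2 lysates lay above both WT lysates. In KO3 the departures were Rpl7a and Rpl17. Rpl7a RNA was 925 and 940 CPM in WT cells and 1333 and 1365 in KO3, a change of 0.54 ± 0.04 (adjusted p = 3.25e-20). Rpl17, an exit tunnel protein, had 1120 and 1106 CPM in WT cells and 1610 and 1555 in KO3, a change of 0.52 ± 0.04 (adjusted p = 1.28e-19). Neither overlapped between WT and KO3, and both are among the 6 genes of most repeated sequence.

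The members' RNA changes varied with the chromosome on which they lie. This grouping was chosen after the values were seen, DNA copy number was not measured, and its part in the result was not tested. In KO1 the other genes of chromosome 7 had a median log2 RNA change of -0.44 and those of chromosome 9 had -0.36, and all 5 and all 4 members there were below 0 (Rpl13a, Rpl18, Rpl27a, Rpl28 and Rplp2; Rpl4, Rpl14, Rpl29 and Rplp1). In KO2 other genes of chromosome 1 had a median of 0.28, close to the changes of Rpl7, Rpl31 and Rpl37a, and those of chromosome 10 had -0.25, where Rpl41 fell by 0.43. The highest RNA changes in KO1 did not follow their chromosomes: other genes of chromosome 10 had a median of 0.09 where Rpl41 rose by 0.84, and those of chromosome 5 had 0.09 where Rpl21 rose by 0.69. In KO3 other genes of chromosome 18 had 0.32 (Rpl17, 0.52), and those of chromosome 2 had 0.18, where Rpl7a rose by 0.54 and Rpl12 fell by 0.26. Over the 45 members Pearson's r between the change of the gene and the median of other genes on its chromosome was 0.78 for KO1, 0.90 for KO2 and 0.57 for KO3, where members of a chromosome share the same median. After that median was subtracted, the SD among members went from 0.27 to 0.17 for KO1, from 0.12 to 0.05 for KO2 and from 0.17 to 0.14 for KO3. For TE changes r was 0.19, -0.36 and 0.30.

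**Figure D3:**
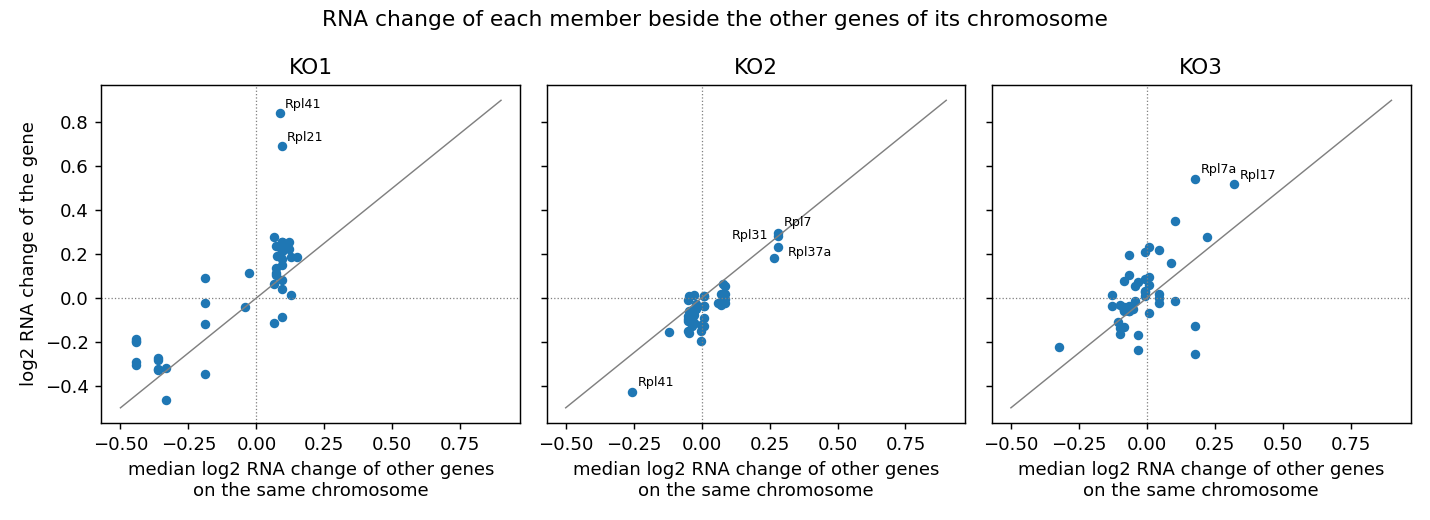
Log2 RNA change of each of the 45 members in KO1, KO2 and KO3 (vertical axis) against the median log2 RNA change of the other tested genes on its chromosome (horizontal axis), with the line of equal values. Points follow the line most closely in KO2, where the 3 members of chromosome 1 are at the upper right and Rpl41 at the lower left.

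Footprints of fewer members differed from WT. In KO1, 16 were called, 5 higher and 11 lower, beside 26.9% of all genes (12.3% and 14.7%). In KO2, 10 were called, 9 higher and 1 lower, beside 11.7% of all genes (6.66% and 5.02%), and without WT replicate 2 there were 6. In KO3, 11 were called, 6 higher and 5 lower, beside 31% of all genes (15.5% in each direction). The median log2 footprint changes were 0.04, 0.04 and -0.02, and 33 members differed among the clones, beside 59.6% of all genes.

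The genes that departed in footprints overlapped only in part with those that departed in RNA. Rpl13a, which is also known as a regulator of translation outside the ribosome, had 969 and 893 footprint CPM in WT cells and 678 and 606 in KO1, a log2 change of -0.52 ± 0.07 (adjusted p = 6.36e-08), while its RNA changed by -0.20 ± 0.04 (adjusted p = 7.75e-06). Rpl35a, whose human counterpart is mutated in Diamond-Blackfan anaemia, had 111 and 103 footprint CPM in WT cells and 76.4 and 70.7 in KO1, a change of -0.52 ± 0.10 (adjusted p = 0.000119). Rpl21 had 174 and 186 in WT cells and 270 and 281 in KO1, a change of 0.61 ± 0.08 (adjusted p = 4.38e-08), close to the change of its RNA. For these 3 genes the WT and KO1 lysates did not overlap.

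In KO2 Rpl37a footprints were 679 and 624 CPM against 497 and 462 in WT cells, a log2 change of 0.45 ± 0.07 (adjusted p = 1.56e-05). Rpl41 footprints were 477 and 430 CPM in KO2 and 618 and 580 in WT cells, a change of -0.39 ± 0.07 (adjusted p = 0.000114). In KO3 the departures were Rpl7a, at 0.40 ± 0.08 (adjusted p = 4.22e-05), and Rpl24, at 0.39 ± 0.06 (adjusted p = 5.77e-07). Rpl24, which takes part in joining the subunits, moved in opposite directions in KO1 and KO3 and did so in both assays. Its RNA was 732 and 696 CPM in WT cells, 514 and 521 in KO1 and 922 and 885 in KO3, and its footprints were 832 and 797 CPM in WT cells, 602 and 624 in KO1 and 1071 and 1067 in KO3. No lysate of one of these lines overlapped another in either assay, and its TE change was 0.05 in KO1 and 0.04 in KO3.

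**Figure D4:**
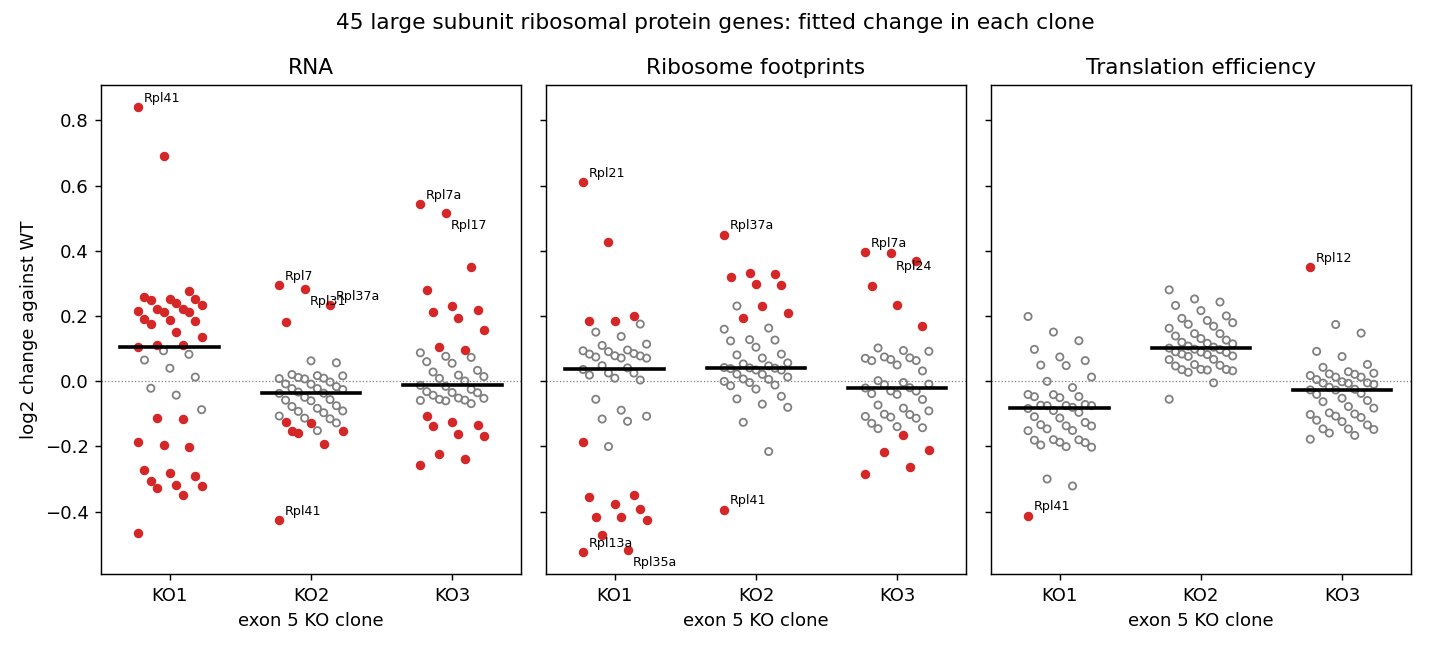
Fitted log2 changes against WT of the 45 members in RNA, footprints and TE for each clone, 1 point per gene. The spread is widest for KO1 RNA, from -0.47 (Rpl24) to 0.84 (Rpl41), and the KO2 TE changes lie above 0 for 43 of 45 genes.

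Single members seldom passed the test for TE, while most members lay below 0 in KO1 and above 0 in KO2. TE changes were tested as the interaction of line and assay over 8 libraries. In KO1, 1 member was called (Rpl41, lower), beside 0.0942% of all genes (0.0428% higher, 0.0514% lower). In KO2 edgeR called 0 members, beside 0.0173% of all genes, and DESeq2 called 0. The unadjusted p of edgeR was under 0.05 for 9 of 45 members in KO2, beside 490 of 11568 genes. It was so for 11 members in KO1, beside 827 of 11680 genes, and for 6 in KO3, beside 699 of 11572. In KO3, 1 member was called (Rpl12, higher), beside 0.104% of all genes (0.0432% higher, 0.0605% lower). RNA and footprints of a replicate come from 1 lysate, and with the lysate as a block 3 members were called in KO1, namely Rpl41, Rpl13a (adjusted p = 0.0029) and Rpl12 (adjusted p = 0.0219), beside 0.659% of all genes. The median log2 TE change of the members was -0.08 in KO1, with 36 of 45 below 0, against a median of 0.02 over all genes, 53.8% of which were above 0. In KO2 the median was 0.10, with 43 of 45 above 0, while 49.5% of all genes were. In KO3 it was -0.03, with 30 of 45 below 0, while 47.9% of all genes were above 0. The median SE of a single member's TE change was 0.08, 0.08 and 0.07 in KO1, KO2 and KO3. As the clones share the WT lysates, their values are not independent of each other. The members' median difference in TE level, replicate 1 minus replicate 2, was 0.06 (WT), 0.09 (KO1), 0.05 (KO2) and -0.02 (KO3). Those of WT, KO1 and KO2 are near the size of the median TE changes in KO1 and KO2. Counts of members above or below 0 thus do not stand for independent genes. With 1 replicate left out in turn, the median TE change stayed below 0 for KO1 (-0.14 to -0.052) and above 0 for KO2 (0.058 to 0.13). The 3 highest TE changes were those of Rpl10 (0.20), Rplp1 (0.15) and Rpl29 (0.12) in KO1, of Rpl35a (0.28), Rpl32 (0.25) and Rpl30 (0.24) in KO2, and of Rpl12 (0.35), Rpl30 (0.17) and Rpl39 (0.15) in KO3. The 3 lowest were those of Rpl41 (-0.41), Rpl13a (-0.32) and Rpl12 (-0.30) in KO1, of Rpl7a (-0.06), Rpl5 (-0.01) and Rpl17 (0.03) in KO2, and of Rpl31 (-0.18), Rpl41 (-0.17) and Rpl3 (-0.16) in KO3. Rpl12 was thus among the lowest in KO1 and the highest in KO3. Rpl41 was among the lowest in both on the transcript with the largest sum. On its shorter transcripts, of 16 counted codons, its change in KO3 was -0.004. Rpl35a, the highest in KO2, had TE levels of -2.02 and -1.59 in the KO2 lysates. That gap of 0.43 was the largest between replicates of any member in KO2.

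KO2 and KO1, which come from the same guide pair, were compared directly and share no library. The members' median TE was higher in KO2 by 0.19 on the log2 scale, with 43 of 45 above 0, while the median of all genes was -0.02 and 46.4% were above 0. Here too the 43 members do not stand for independent genes. The test called 4 members, all higher in KO2, beside 0.437% of all genes (0.3% higher): Rpl12 (0.51 ± 0.09, adjusted p = 0.0025), Rpl41 (0.46 ± 0.10, adjusted p = 0.0116), Rpl30 (0.45 ± 0.10, adjusted p = 0.0116) and Rpl13a (0.42 ± 0.09, adjusted p = 0.0151). Rpl35a, at 0.49 ± 0.13, was not called (adjusted p = 0.067). The counts depended on the KO1 lysates: without either of them 0 members were called by edgeR, and without either KO2 lysate 3 were. Rpl41 and Rpl13a lost their calls without KO2 replicate 1, and Rpl30 lost its call without KO2 replicate 2. With the lysate as a block 12 were called, beside 1.84% of all genes. The TE change differed among the 3 clones for 6 members, beside 0.957% of all genes, and for 15 with the lysate as a block, beside 3.22%. They were Rpl12 (adjusted p = 1.28e-06), Rpl41 (0.00517), Rpl30 (0.00582), Rpl13a (0.00619), Rpl32 (0.0195) and Rpl37a (0.0322). Without KO1 replicate 2, the shallowest library, 1 was called, and without any other replicate 4 or 5.

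Rpl12, part of the base of the stalk that contacts elongation factors, departed most from the other members in TE. Its RNA was 1674 and 1666 CPM in WT cells, 1925 and 1952 in KO1, 1690 and 1648 in KO2, while KO3 had 1440 and 1336. Its footprints were 389 and 383 CPM in WT cells, 369 and 353 in KO1, 445 and 444 in KO2, while KO3 had 423 and 400. Its TE levels were -2.10 and -2.12 in WT cells, -2.38 and -2.47 in KO1, -1.92 and -1.89 in KO2, while KO3 had -1.77 and -1.74. In TE no line overlapped another, and the lysates of a line differed by less than the gap to the next line. RNA, which is the denominator of TE, was highest where TE was lowest and lowest where TE was highest. The TE change was -0.30 ± 0.08 in KO1 (adjusted p = 0.243), 0.20 ± 0.08 in KO2 (adjusted p = 1) and 0.35 ± 0.08 in KO3 (adjusted p = 0.0399). The KO3 call was lost when any 1 WT or KO3 replicate was left out (adjusted p from 0.222 to 0.665) and with DESeq2 (adjusted p = 0.0707), and the difference between KO2 and KO1 was lost without KO1 replicate 1 (adjusted p = 0.0915) or replicate 2 (adjusted p = 0.0805). The difference among the 3 clones stayed called in all 19 alternatives run on it, with a highest adjusted p of 0.000609. Every window of Rpl12 has a copy elsewhere in the genome, and the part of reads from copies in its TE was not tested.

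On the transcript with the largest sum, Rpl41 had TE levels of -0.86 and -1.01 in WT cells, -1.27 and -1.43 in KO1, -0.77 and -1.04 in KO2, while KO3 had -1.07 and -1.11. KO1 lay below all other lysates, and WT and KO2 overlapped. Its footprints rose in KO1 by 0.43 ± 0.07 (adjusted p = 2.33e-06) where its RNA rose by 0.84, and its TE change was -0.41 ± 0.08 (adjusted p = 0.0161). That call was lost without WT replicate 1 (adjusted p = 0.741) or KO1 replicate 2 (adjusted p = 0.30). The transcript with the largest sum has 37 counted codons, and the other transcripts in the table with many reads have 16 counted codons and equal counts. In WT cells a 16-codon transcript had 4000 and 2739 footprint counts and 3034 and 3257 RNA counts. The 37-codon transcript had 2201 and 1403 footprint counts and 12315 and 13680 RNA counts. Which coding sequence the footprints come from was not tested. On a 16-codon transcript the TE level was 2.02 and 2.03 in WT cells and 1.63 and 1.52 in KO1, so the level of Rpl41 among the members depends on the transcript, whereas its change in KO1 was alike, at -0.44 (adjusted p = 0.00358). Its change in KO3 was -0.17 on the longer and -0.004 on the shorter transcript, neither called.

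The other members whose TE change differed among the clones were Rpl30, Rpl13a, Rpl32 and Rpl37a. Between KO2 and KO1, Rpl32 (adjusted p = 0.0784) and Rpl37a (adjusted p = 0.0548) were not called. Rpl30, a protein of the subunit bridges, had TE levels of -1.26 and -1.47 in WT cells, -1.55 and -1.54 in KO1, -1.16 and -1.06 in KO2, while KO3 had -1.31 and -1.03. Rpl13a had -0.97 and -1.10 in WT cells, -1.30 and -1.46 in KO1, -0.91 and -0.98 in KO2, while KO3 had -1.10 and -1.03. In both genes KO1 lay below every other lysate, and KO2 overlapped WT for Rpl13a only. Rpl32 had -0.70 and -0.63 in WT cells, -0.72 and -0.77 in KO1, -0.46 and -0.36 in KO2, while KO3 had -0.80 and -0.64. Rpl37a had -0.85 and -0.99 in WT cells, -1.05 and -1.07 in KO1, -0.65 and -0.75 in KO2, while KO3 had -0.94 and -0.89. For these genes KO2 lay above every other lysate. The calls for Rpl30, Rpl13a, Rpl32 and Rpl37a among the clones were each lost without KO1 replicate 2, at adjusted p of 0.0778, 0.206, 0.0512 and 0.154, and that for Rpl41 was lost with it at 0.172. Other calls that rested on 1 replicate were those of Rpl30 (lost without KO1 replicate 1), Rpl41 (KO2 replicate 1), Rpl32 (either KO2 replicate or KO3 replicate 1) and Rpl37a (any replicate other than KO2 replicate 2). When every library was thinned to the depth of the smallest of the same assay, 2 members were called between KO2 and KO1.

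**Figure D5:**
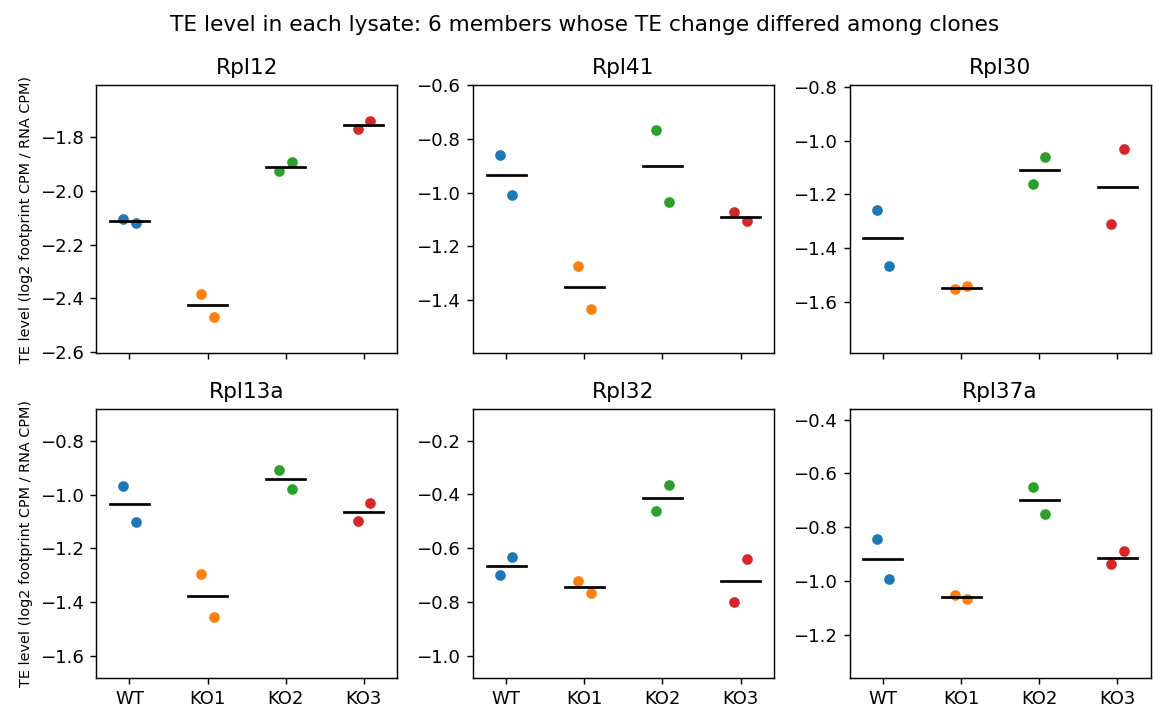
TE level (log2 ratio of footprint CPM to RNA CPM) in each lysate of WT, KO1, KO2 and KO3 for the 6 members whose TE change differed among the clones, 1 point per lysate and all panels spanning 1 log2 unit. KO1 is lowest in each gene except Rpl32, where it overlaps KO3, and Rpl12 is the gene whose 4 lines are all apart. Rpl41 is drawn on its transcript with 37 counted codons.

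By role, the 3 proteins of the peptidyl transferase and tRNA sites, Rpl3, Rpl8 and Rpl10, all had lower RNA in KO1, from -0.35 (Rpl8, adjusted p = 3.37e-12) to -0.11 (Rpl10, adjusted p = 0.0138). All 3 were called, beside 24.8% of all genes called lower. Rpl3 and Rpl8 lie on chromosome 15, whose other genes had a median log2 RNA change of -0.19 in KO1. The direction was not kept in the other clones. In KO2 RNA of 1 of the 3 was called lower, beside 8.68%, and in KO3 RNA of 2 was called higher, beside 23.1%. None of the TE changes of these 3 was called. That of Rpl10 in KO1, 0.20, was the highest of any member and rests on footprints shared with its copy. Rpl5 and Rpl11, which carry the 5S RNA into the subunit and bind Mdm2 when ribosome assembly fails, both had higher RNA in KO1, at 0.21 (adjusted p = 2.43e-05) and 0.25 (adjusted p = 9.5e-07), with TE changes of -0.19 and -0.18 that were not called. In KO1 22% of all genes were called higher for RNA. In KO2 neither Rpl5 nor Rpl11 was called for RNA, and in KO3 Rpl5 alone was, at 0.10 (adjusted p = 0.0393). Of the 8 exit tunnel proteins, RNA of 4 was called higher and of 1 was called lower in KO1, beside 22% and 24.8% of all genes. In KO2 RNA of 1 was called higher and of 1 lower, beside 11.7% and 8.68%. In KO3 RNA of 2 was called higher and of 3 lower, beside 23.1% and 22.4%. Their TE changes ranged from -0.13 to 0.10 in KO1, from 0.03 to 0.19 in KO2 and from -0.18 to 0.15 in KO3, none of them called.

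The small subunit ribosomal protein genes are given for comparison. For their 32 genes the median TE changes were -0.09 (KO1), 0.14 (KO2) and -0.06 (KO3), with a median difference of 0.26 between KO2 and KO1. Of them 1 was called lower in KO1 (Rps20), beside 0.0514% of all genes, and 1 higher in KO2 (Rps12), beside 0.0173%. Between KO2 and KO1, 6 were called higher in KO2 (Rps12, Rps18, Rps20, Rps23, Rps28 and Rps3), beside 0.3% of all genes. The 16 other mRNAs known to carry TOP tracts, chiefly of translation factors, had medians of -0.04, 0.07 and -0.12, and 0.12 between KO2 and KO1, where Eef1b2 was called higher. The 27 genes of 60S assembly factors had medians of -0.003, 0.01, -0.003 and 0.003. The 6 tested genes of other 60S proteins and paralogs had -0.01, 0.09, -0.06 and 0.11. RNA of the assembly factors was called higher for 3 and lower for 12 in KO1 (22% and 24.8% of all genes), higher for 5 and lower for 1 in KO2 (11.7% and 8.68%), and higher for 1 and lower for 10 in KO3 (23.1% and 22.4%).

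TOP tracts were looked for at annotated transcription starts, since these mRNAs are known by their first bases. RefSeq promoter windows of GRCm38.p6 were matched for 34 members, with 40 starts. A start at C followed by at least 4 pyrimidines, read on the strand of the gene, was found for 7 members (20.6%), for 7 of 24 matched small subunit genes (29.2%) and for 3.01% of the 27025 genes with a window. The windows shown are the 2 with the longest runs, Rpl15 and Rpl35, that of Rpl38, whose run is as long as those of Rpl28 and Rpl35a, and that of Rpl12, which has none at its annotated start. They begin 10 bases before the start, and capitals mark the pyrimidine run that begins at the start.
Rpl15, chr14:18270967-18270996, minus strand: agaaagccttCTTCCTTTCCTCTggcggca
Rpl35, chr2:39005112-39005141, minus strand: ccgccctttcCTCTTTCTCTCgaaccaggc
Rpl38, chr11:114668570-114668599, plus strand: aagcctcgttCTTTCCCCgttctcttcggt
Rpl12, chr2:32961702-32961731, plus strand: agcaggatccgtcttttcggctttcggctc
A match describes these letters at the annotated base alone, and annotated starts can lie a few bases from those in use.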

How the data were processed

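RNA-seq and Ribo-seq counts of 16 libraries were used as the authors deposited them: raw counts per transcript, with no normalization or pooling. The submitters' processing notes name fastp 0.21.0 and STAR 2.7.0a, and per the study's methods reads were assigned on mm10 with GENCODE vM23 and counted at the A site without the first and last 5 codons. The labels name polyA RNA and the protocol rRNA depletion. Members and lists were chosen with earlier results of these data known. With edgeR 4.0.16 (R 4.3.3), TMM factors within each assay, filterByExpr and quasi-likelihood tests were used, with Benjamini-Hochberg adjustment over all genes: 4 libraries for RNA or footprints, 8 for TE and 16 for differences among clones. In simulated KO1 data, 85 of 100 genes changed by 1 (log2) and 38 of 100 changed by 0.5 were called for TE. Named genes were members past 3 scaled MAD (factor 1.4826) of the members' median, those called for TE, the 3 highest and lowest TE changes per clone and WT TE levels, role examples and the most repeated members. RNA and footprints come from the same lysate, and their deviations within a line had r of 0.06 to 0.13 over 8093 genes. DESeq2 1.42.0, other filters, blocks, thinning and left-out replicates were alternatives.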

Additional observations from a re-analysis of the deposited data

Results flagged for a closer look

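The clones differed from each other in their change against WT, by a test of equality over the 3 clones in 1 model. In RNA this held for 42 members, in footprints for 33 and in TE for 6, beside 74.1%, 59.6% and 0.957% of all genes tested. For TE the adjusted p was 1.28e-06 for Rpl12, 0.00517 for Rpl41, 0.00582 for Rpl30, 0.00619 for Rpl13a, 0.0195 for Rpl32 and 0.0322 for Rpl37a.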

How the results depend on the processing

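Of 367 comparisons of counts and medians with their values under an alternative, 307 stayed within the limits set and 60 moved. For 47 results on single members, 715 of 764 comparisons kept direction and call, 42 lost the call, 7 gained one and 0 reversed a called change.

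Calls for TE in KO1 were 2 with no filter, 3 with the replicate block, 3 with the lysate block and 3 with DESeq2. In KO3 they were 0 with all libraries in 1 fit, 0 with thinned libraries and 0 with DESeq2. Between KO2 and KO1 there were 8 with no filter, 8 with all transcripts, 8 with all libraries in 1 fit, 9 with the replicate block, 12 with the lysate block, 12 with DESeq2, 2 with thinned libraries and 8 at an adjusted p under 0.1. TE differences among clones were called for 10 members with no filter, 10 with the replicate block, 15 with the lysate block, 10 with DESeq2 and 3 with thinned libraries. The share of all genes called moves with the setting too. With the lysate block it was 0.659% in KO1, 1.84% between KO2 and KO1 and 3.22% among clones. In the main fit it was 0.0942%, 0.437% and 0.957%. Shares under the other alternatives are not given here, so those counts describe the setting as much as the members. DESeq2 called 7 members for RNA in KO2, 6 for footprints in KO2 and 7 for footprints in KO3, and thinning left 5 for footprints in KO2. Replicate numbers are shared by WT and clones by label, with 2 pairs. Between WT and a clone, deviations at the same replicate number had r of 0.06 to 0.21 for RNA and 0.03 to 0.09 for footprints. What these numbers stand for is not labelled, and a shared batch was not tested. The block on replicate numbers moved no other count past the limit.

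Over the few members with little long copied sequence, named above, the median RNA change was 0.065 for KO1, -0.026 for KO2 and 0.097 for KO3. Over members with no window at 10 or more loci, an alternative chosen after seeing the data, it was 0.013, -0.023 and 0.014, with a median TE change of -0.14 in KO1. Relative to the chromosome, also chosen after seeing the data, the median RNA change was -0.054 in KO2 and 0.034 in KO3, and that of footprints -0.0054 in KO1 and 0.022 in KO3.

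With 1 replicate left out in turn, calls in KO1, KO2 and KO3 ranged from 29 to 38, 4 to 17 and 12 to 19 for RNA, 12 to 19, 6 to 8 and 8 to 9 for footprints, and 0 to 1, 0 to 0 and 0 to 0 for TE. They ranged from 0 to 3 between KO2 and KO1, and from 41 to 42, 28 to 33 and 1 to 5 for differences among clones in RNA, footprints and TE. The medians ranged from 0.082 to 0.13, -0.063 to -0.035 and -0.030 to 0.013 for RNA, -0.0062 to 0.057, 0.01 to 0.08 and -0.056 to 0.020 for footprints, and -0.14 to -0.052, 0.058 to 0.13 and -0.063 to 0.0076 for TE. The cause of these moves was not tested. Footprint counts, with from 1138944 to 4886757 in a library, are fewer than RNA counts and limit the precision of TE.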
